A study of Vitis vinifera with 12 samples.

Results

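Grapevine (Vitis vinifera) carries a large family of NAC transcription factors, and 784 places in its genome were examined here at which CARPO, NAC33 and NAC03 each had a binding event. These places are called shared sites below and were chosen by the deposited positions of the events. A shared site is a CARPO event on leaf DNA labelled 500, off the sequence chr00, with a NAC33 event and a NAC03 event of the same DNA and label within 100 bp. Of the 14344 CARPO events off chr00 in that list, 784 (5.47%) qualified, out of 44889 events in all 7 lists. The rule used the 3 lists on leaf DNA labelled 500, so the presence of an event in those lists, its strength there and its distance from CARPO are descriptions and not findings.

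NAC proteins are plant transcription factors with a conserved DNA-binding domain at the amino end and a variable regulatory region at the carboxy end. They bind DNA as dimers and recognise a short core sequence, so members of the family can have overlapping targets. In grapevine and in other fleshy fruits, members of the family are known for roles in senescence and in the change from green growth to ripening. NAC33 is known in grapevine as a factor that ends photosynthetic activity as organs mature. CARPO, also named NAC60, is the factor for which the title of the series claims control over organ maturation and ripening.

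The assay was DAP-seq (DNA affinity purification sequencing), in which a tagged factor made in rabbit reticulocyte lysate retains fragments of protein-free genomic DNA that are then sequenced. All DNA came from the cultivar Syrah, and every factor was of Vitis vinifera and carried a HALO tag. The 7 event lists are CARPO, NAC33 and NAC03 on young leaf DNA labelled 500, CARPO and NAC33 on young leaf DNA labelled 1000, and CARPO and NAC33 on berry DNA labelled 500. The titles give 500 and 1000 without a unit. The growth text names leaf material for the berry samples too, so the word berry rests on the sample titles and the source label. Since the DNA carried no chromatin, an event shows binding in the tube and not occupancy in a leaf or a berry. The 12 samples include 3 HALO-GST controls, which were not analysed here, so recovery of a place without any factor was not tested.

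The lists held 731 events (NAC33 on berry DNA) to 14786 events (CARPO on leaf DNA labelled 500). CARPO and NAC33 on leaf DNA labelled 500 were each called from 2 libraries together, and every other list belongs to 1 library. Read depth is unknown. Each condition has 1 list, so differences between lists have no replicate spread, and no test was made between sites and other events. Shares carry exact Clopper-Pearson 95% intervals, which cover counting error only and treat events as independent, although neighbouring sites can share a partner. No genome or annotation of the build of the event coordinates was used here. Positions are therefore given as deposited, counted from 1, and no gene or base sequence is named.

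The sites were found on all 19 numbered chromosomes. They rested on 746 different NAC33 events and 753 different NAC03 events, which were 13.1% of the NAC33 events and 18.5% of the NAC03 events off chr00 on leaf DNA labelled 500. The numbers of partner events are below 784 because some sites shared a partner event. There were 38 sites within 100 bp of the site before them, of which 37 shared its NAC33 event and 31 shared both partners. One further site, 129 bp from the site before it, also shared a NAC33 event. The median distance from one site to the next was 241210 bp, with quartiles of 87126 and 631353 bp. In windows of 100000 bp, the most crowded held 4 sites, on chromosome 13 at 3500001 to 3600000. Chromosome 18 had the most sites, with 83, and also the most CARPO events, with 1303. Its share was 6.37% (95% interval 5.11% to 7.84%), an interval that includes the 5.47% over all CARPO events off chr00. As a share of the CARPO events on each chromosome, the sites ranged from 3.34% on chromosome 12 (95% interval 2.05% to 5.11%) to 7.44% on chromosome 11 (5.55% to 9.71%).

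The strength of an event is the value the authors' caller gave it, and it is comparable only within 1 list. It is given below as a percentile of the list, where a low percentile is a strong event. The shared sites had a median CARPO percentile of 14.0 (quartiles 5.27 and 34.5) and a median CARPO strength of 58, against 29 over all events of that list off chr00. They had a median percentile of 26.0 in the NAC33 list and of 30.8 in the NAC03 list. In the strongest 10% of each list stood 323 sites (41.2%) for CARPO, 198 (25.3%) for NAC33 and 144 (18.4%) for NAC03. Weak events were also among the sites. In the weaker 50% of the list stood 121 sites for CARPO, 206 for NAC33 and 263 for NAC03.

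Across the 784 sites, the rank of strength in the CARPO list went most closely with that in the NAC03 list (Spearman's rho 0.61, as a description). The coefficient was 0.49 for NAC33 with NAC03 and 0.29 for NAC33 with CARPO. With lists not used by the rule, it was 0.78 for CARPO labelled 1000 against 500 on leaf DNA (592 sites) and 0.64 for NAC33 (555 sites). On leaf DNA labelled 1000, where both factors were measured again, NAC33 and CARPO had a coefficient of 0.31 over 452 sites. The points are places of 1 genome measured in the same few libraries, so mappability and base composition are common to both axes.

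The first question that the other 4 lists allow is whether CARPO and NAC33 were found again at the shared sites. CARPO labelled 1000 on leaf DNA had an event at 592 of the 784 sites (75.5%, 95% interval 72.3% to 78.5%), against 46.9% of all CARPO events off chr00. CARPO on berry DNA had one at 474 sites (60.5%, 56.9% to 63.9%), against 22.5% of all. NAC33 labelled 1000 on leaf DNA had one at 555 sites (70.8%, 67.5% to 74.0%), against 10.6%. NAC33 on berry DNA, the shortest list, had one at 132 sites (16.8%, 14.3% to 19.6%), against 1.42%. The intervals for the sites did not overlap those for all CARPO events, which include the sites themselves, in any of these 4 lists. For the NAC33 lists that separation is partly fixed by the rule, which requires a NAC33 event labelled 500 at each site. Of all NAC33 events labelled 500 off chr00, 39.4% recurred on leaf DNA labelled 1000 and 5.89% on berry DNA.

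**Figure D1:**
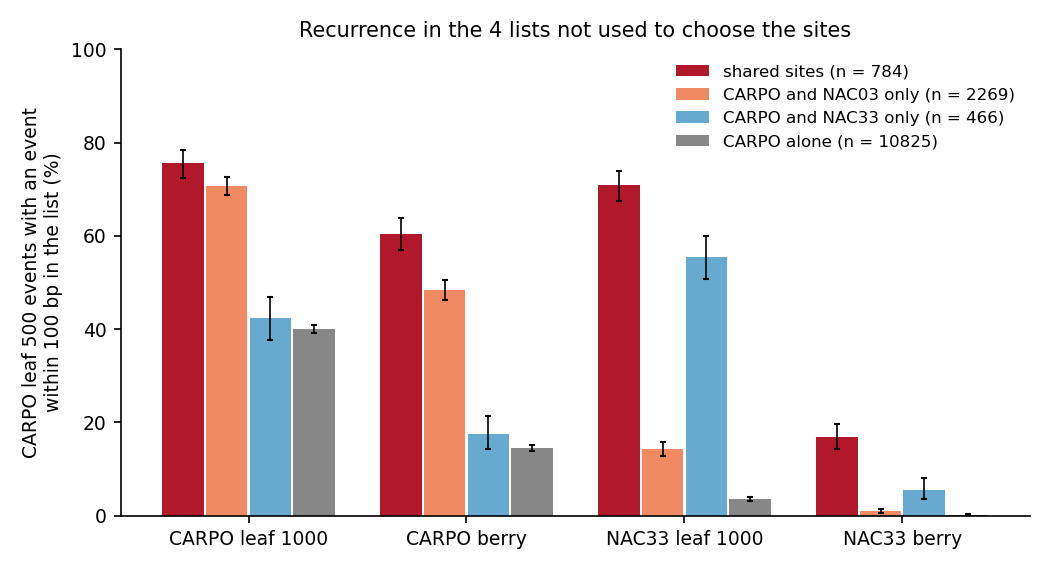
Share of CARPO leaf 500 events (y axis, percent) with an event within 100 bp in each of the 4 lists the rule did not use (x axis). Bars are the shared sites and 3 other classes of CARPO events, and error bars are exact 95% intervals. The shared sites stand at 75.5%, 60.5%, 70.8% and 16.8%.

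The sites were next set against CARPO events with 1 partner factor, first over all strengths. Of the 784 shared sites, 75.5% had a CARPO event labelled 1000, against 70.7% of the 2269 CARPO events with a NAC03 partner only (95% interval 68.8% to 72.6%), and the intervals overlapped. On berry DNA these CARPO shares were 60.5% at the shared sites and 48.3% at the places with CARPO and NAC03 only. For NAC33 labelled 1000, the shared sites had 70.8%, and the 466 CARPO events with a NAC33 partner only had 55.4% (50.7% to 59.9%). For NAC33 on berry DNA the shares were 16.8% at the shared sites and 5.58% at places with CARPO and NAC33 only. The 10825 CARPO events with neither partner had a CARPO event labelled 1000 in 40.0% and a NAC33 event labelled 1000 in 3.58%.

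The shared sites were also stronger CARPO events than the rest, and strength moved with recurrence. Their median CARPO percentile was 14.0, against 20.8 for CARPO and NAC03 only, 53.7 for CARPO and NAC33 only and 57.0 for CARPO alone. The CARPO events off chr00 were therefore split into 5 classes of equal size by CARPO strength, class 1 being the strongest. For CARPO labelled 1000, the shares at shared sites and at other CARPO events were then close in classes 1 to 3. They were 94.1% and 90.5% in class 1, 65.5% and 63.8% in class 2, and 37.0% and 39.7% in class 3. In class 4 they were 34.6% (95% interval 22.0% to 49.1%) and 25.3% (23.7% to 27.0%). In class 5 the shared sites had 1 of 34 (2.94%, 95% interval 0.0744% to 15.3%), against 14.5% of the other events.

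On berry DNA, the CARPO shares in class 1 were 82.6% at shared sites (95% interval 78.9% to 85.9%) and 63.8% at other CARPO events (61.8% to 65.7%). In class 2 they were 39.9% (31.9% to 48.2%) and 23.9% (22.3% to 25.5%), and in each of classes 3 to 5 the intervals overlapped. Within class 1 the shared sites still had the higher median strength, 88 against 65.3, and the part of that gap in the result was not tested. For NAC33 labelled 1000, the shares were 78.6% at shared sites and 14.9% at other CARPO events in class 1, and 44.1% (27.2% to 62.1%) and 3.17% in class 5. The NAC33 gap is partly fixed by the rule, since every shared site already had a NAC33 event labelled 500.

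Set against CARPO events with 1 partner factor in the same strength class, the shared sites had overlapping intervals in most classes. For NAC33 labelled 1000, the shares at shared sites and at places with CARPO and NAC33 only were 78.6% (95% interval 74.7% to 82.2%) and 68.9% (57.1% to 79.2%) in class 1. They were 64.2% and 66.0% in class 2, 57.5% and 52.3% in class 3, 53.8% and 52.9% in class 4, and 44.1% and 38.5% in class 5. The intervals overlapped in all 5 classes, and in class 2 the shared sites had the lower share. For CARPO on berry DNA, the shares at shared sites and at places with CARPO and NAC03 only were 82.6% (78.9% to 85.9%) and 76.5% (73.9% to 78.9%) in class 1, and 39.9% (31.9% to 48.2%) and 29.4% (25.3% to 33.8%) in class 2. These intervals met at their ends in class 1 and overlapped in classes 2 to 5. For CARPO labelled 1000, the same sets had overlapping intervals in classes 1 to 4, and in class 5 the shared sites had 1 of 34 (2.94%), against 22.3% (15.7% to 30.1%) of the places with CARPO and NAC03 only. For NAC33 on berry DNA, the share in class 1 was 19.5% (16.0% to 23.3%) at shared sites and 4.05% (0.844% to 11.4%) at places with CARPO and NAC33 only, and the intervals overlapped in classes 2 to 5.

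**Figure D2:**
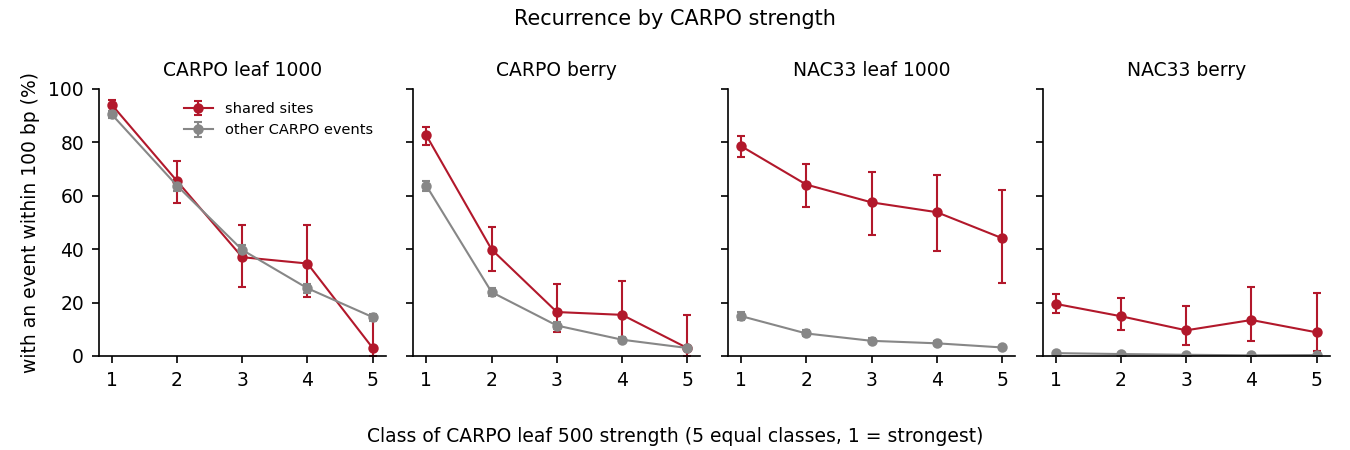
Share of shared sites and of other CARPO leaf 500 events (y axis, percent) with an event within 100 bp, by class of CARPO strength (x axis, 5 classes of equal size, 1 is the strongest), 1 panel for each list. Error bars are exact 95% intervals. For CARPO leaf 1000 the lines run together in classes 1 to 3, with 94.1% and 90.5% in class 1, while for NAC33 leaf 1000 they stay apart in all 5.

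A comparison among NAC33 events alone removes that part. Of the 746 NAC33 events at shared sites, 531 recurred in the NAC33 list labelled 1000 (71.2%, 95% interval 67.8% to 74.4%), against 1707 of the 4929 NAC33 events elsewhere off chr00 (34.6%, 33.3% to 36.0%) and 39.4% of all. On berry DNA 125 of them recurred (16.8%, 14.1% to 19.6%), against 4.24% elsewhere (3.69% to 4.84%) and 5.89% of all.

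Within 5 equal classes of NAC33 strength, the share found again at 1000 was higher at shared sites in each class. It was 90.6% at shared sites and 69.7% elsewhere in class 1, and 70.5% and 48.8% in class 2. In classes 3 to 5 it was 57.5% and 32.5%, 46.3% and 19.1%, and 32.7% (20.3% to 47.1%) and 12.3% (10.4% to 14.4%). The intervals of the pairs did not overlap in any class. The NAC33 events elsewhere were not split by partner, and those with a CARPO partner only are among them. Within classes of CARPO strength, places with CARPO and NAC33 only had intervals that overlapped those of the shared sites in all 5 classes. The higher share is thus not shown to be particular to sites with all 3 factors. On berry DNA the share in class 1 was 31.6% at shared sites (26.5% to 37.1%) and 14.9% elsewhere (12.5% to 17.5%). In class 2 it was 7.95% (4.42% to 13.0%) and 4.69% (3.44% to 6.23%), and the berry intervals overlapped in classes 2 to 5. Median NAC33 strength was 48.4 at shared sites and 44 elsewhere in class 1, and 33 in both groups in class 2.

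Counted over all lists, 92 sites (11.7%) had an event in all 7, 281 in 6, 204 in 5, 134 in 4 and 73 (9.31%) in the 3 lists of the rule only. Of all CARPO events off chr00, 0.76% had an event in all 4 other lists and 47.2% in none of them. Both factors were found again on leaf DNA labelled 1000 at 452 sites (57.7%), against 7.71% of all CARPO events. Both were found on berry DNA at 105 sites (13.4%), against 0.913% of all. These contrasts are partly fixed by the rule, which requires a NAC33 event at each site. Among the 466 CARPO events with a NAC33 partner only, both factors were found labelled 1000 at 28.3% and on berry DNA at 1.29%. Of these 466, 0.644% had an event in all 4 other lists and 28.5% in none. Their median CARPO percentile was 53.7, against 14.0 at the shared sites, and strength was not matched here.

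Strength in the 3 lists of the rule followed the number of lists. At the 92 sites in all 7 lists the median percentile was 5.05 for CARPO, 4.40 for NAC33 and 11.0 for NAC03. At the 73 sites in 3 lists only, it was 57.0 for CARPO, 47.1 for NAC33 and 60.8 for NAC03. Sites in 3 lists therefore stood near the middle of each list.

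**Figure D3:**
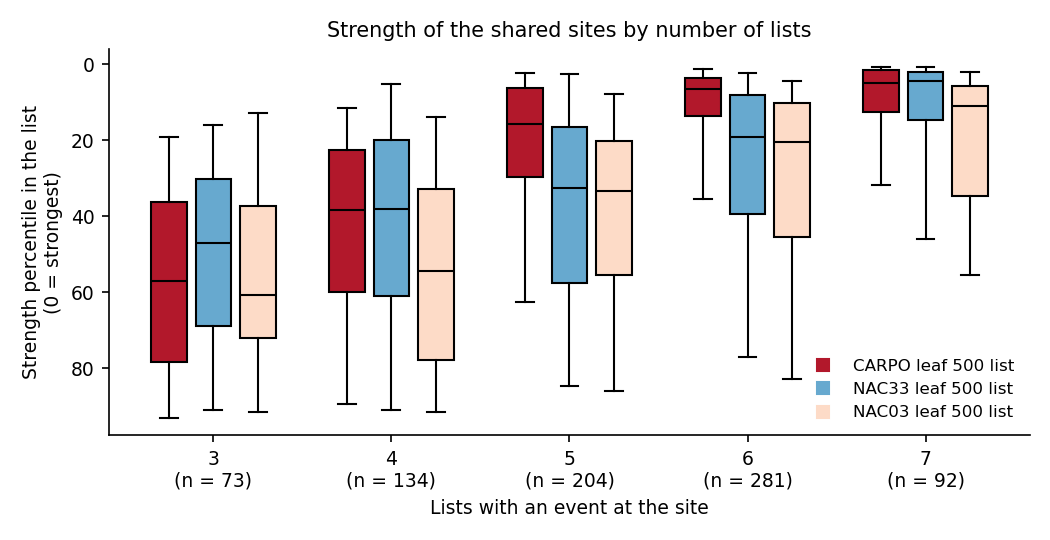
Strength percentile of the shared sites in the 3 leaf 500 lists (y axis, 0 is the strongest and stands at the top) by the number of lists with an event at the site (x axis). Boxes span the quartiles with the median as a line, and whiskers span the 5th to 95th percentiles. The CARPO median stands at 57.0 for sites in 3 lists and at 5.05 for sites in 7.

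The sites also differed in which factor was found again. At 476 sites (60.7%) both CARPO and NAC33 recurred in at least 1 of their 2 other lists. At 145 sites (18.5%) CARPO alone recurred, at 90 (11.5%) NAC33 alone, and at 73 (9.31%) neither, against 47.2% with neither among all CARPO events off chr00. The contrast for neither is also partly fixed by the rule, which requires a NAC33 event at each site. The other shares of this split were not computed over all CARPO events, so they only describe the sites. The sites at which CARPO alone recurred had a median percentile of 14.0 in the CARPO list and 57.6 in the NAC33 list. The sites at which NAC33 alone recurred had a median percentile of 47.9 in the CARPO list and 25.1 in the NAC33 list. In the NAC03 list, which has no second list, the medians were 37.2 for CARPO alone, 50.7 for NAC33 alone and 24.1 for the sites with both. In both sets, the factor that recurred had the lower median percentile, each within its own list on leaf DNA labelled 500. Over all 784 sites the medians were 14.0 for CARPO and 26.0 for NAC33. The CARPO median where CARPO alone recurred was thus the same as over all sites.

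The called positions of the 3 factors did not coincide to the base in most shared sites. NAC03 lay within 3 bp of CARPO at 538 sites (68.6%, 95% interval 65.2% to 71.9%) and NAC33 at 260 sites (33.2%, 29.9% to 36.6%). NAC33 was more than 50 bp from CARPO at 153 sites, and NAC03 at 54. The median distance was 16 bp for NAC33 and 1 bp for NAC03. These shares were close to those at places with 1 partner factor only, 66.1% for NAC03 (64.1% to 68.0%) and 29.2% for NAC33 (25.1% to 33.5%), and the intervals overlapped.

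**Figure D4:**
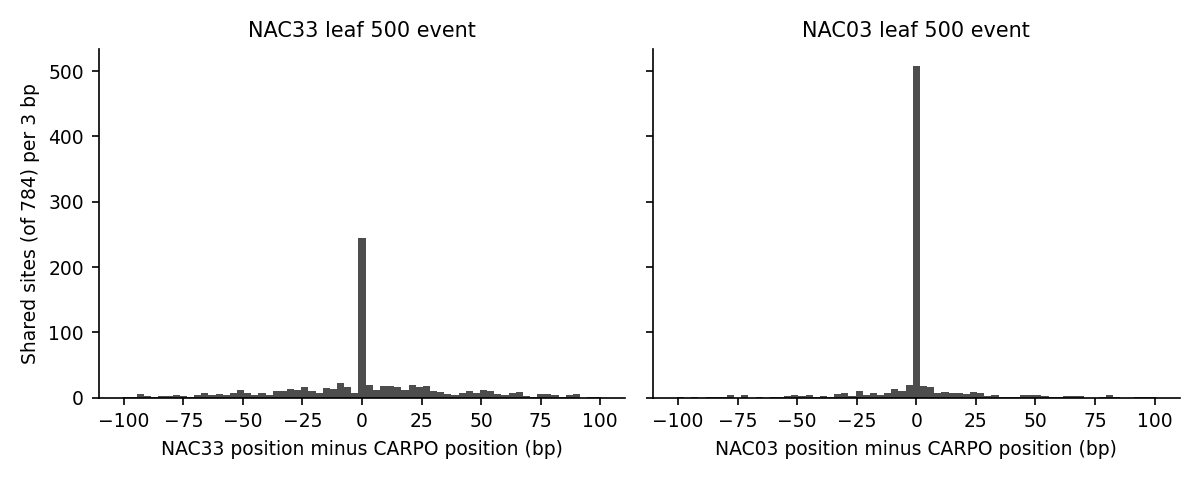
Distance of the NAC33 event (left) and the NAC03 event (right) from the CARPO event, all on leaf DNA labelled 500, at the 784 shared sites (x axis, bp; y axis, sites per 3 bp). The narrow centre holds most NAC03 events (538 within 3 bp) and 260 NAC33 events, and the other NAC33 events spread over both sides.

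By these distances the sites fell into 4 arrangements. At 211 sites (26.9%) both partners lay within 3 bp of CARPO. At 327 sites (41.7%) NAC03 did and NAC33 did not, at 49 (6.25%) NAC33 did and NAC03 did not, and at 197 (25.1%) neither did. At 47 of these 197 sites NAC33 and NAC03 lay within 3 bp of each other, away from CARPO.

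Sites with all events within 3 bp and sites with NAC33 apart differed in the recurrence of NAC33 labelled 1000 and less in that of CARPO labelled 1000. NAC33 labelled 1000 was found at 81.5% of the sites with all events within 3 bp (95% interval 75.6% to 86.5%), and at 65.7% of the sites with NAC33 apart (60.3% to 70.9%). CARPO labelled 1000 was found at 72.5% (66.0% to 78.4%) of the sites with all events within 3 bp and at 79.2% (74.4% to 83.5%) of those with NAC33 apart, so those intervals overlapped. Median NAC33 percentiles were 25.1 with all events within 3 bp and 28.2 with NAC33 apart. With only NAC03 apart, NAC33 labelled 1000 was found at 75.5% (61.1% to 86.7%), an interval that overlapped both of those above. With both partners apart it was found at 66.5% (59.4% to 73.0%). On berry DNA, NAC33 was found at 21.3% (16.0% to 27.5%) with all within 3 bp and at 12.2% (8.88% to 16.3%) with NAC33 apart. It was found there at 24.5% with NAC03 apart and at 17.8% with both apart.

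The other NAC33 lists show how well the place of NAC33 was kept. Of the 209 NAC33 events within 3 bp of CARPO that recurred at 1000, 159 (76.1%, 95% interval 69.7% to 81.7%) lay within 3 bp of their place at 500. Of the 322 recurring NAC33 events that stood more than 3 bp from CARPO at every site they served, 97 (30.1%, 25.2% to 35.5%) did. Among the 209, 12 events served a neighbouring site as well, at which they stood apart. NAC33 events away from shared sites lay between these values, with 859 of 1707 (50.3%, 47.9% to 52.7%). On berry DNA the same order was seen, with 87.7% (76.3% to 94.9%) for NAC33 within 3 bp of CARPO, 48.5% (36.2% to 61.0%) for NAC33 apart and 68.4% (61.7% to 74.7%) elsewhere.

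Where NAC33 stood apart on leaf DNA labelled 500, its event labelled 1000 seldom moved onto CARPO. Among the 346 such sites with a NAC33 event labelled 1000, taking the event nearest to CARPO, 44 (12.7%, 95% interval 9.39% to 16.7%) had it within 3 bp of CARPO. At 273 of the 346 it lay on the same side of CARPO as at 500. At 199 it was more than 3 bp from both places. The place of CARPO was followed over all sites at which NAC33 stood apart and CARPO recurred. Its event labelled 1000 was within 3 bp of CARPO labelled 500 at 282 of 402 sites (70.1%, 65.4% to 74.6%) and within 3 bp of the displaced NAC33 event at 21 (5.22%, 3.26% to 7.87%). On berry DNA it was within 3 bp of CARPO labelled 500 at 172 of 321 sites (53.6%, 48.0% to 59.1%), within 3 bp of NAC33 at 21, and near neither at 129.

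**Figure D5:**
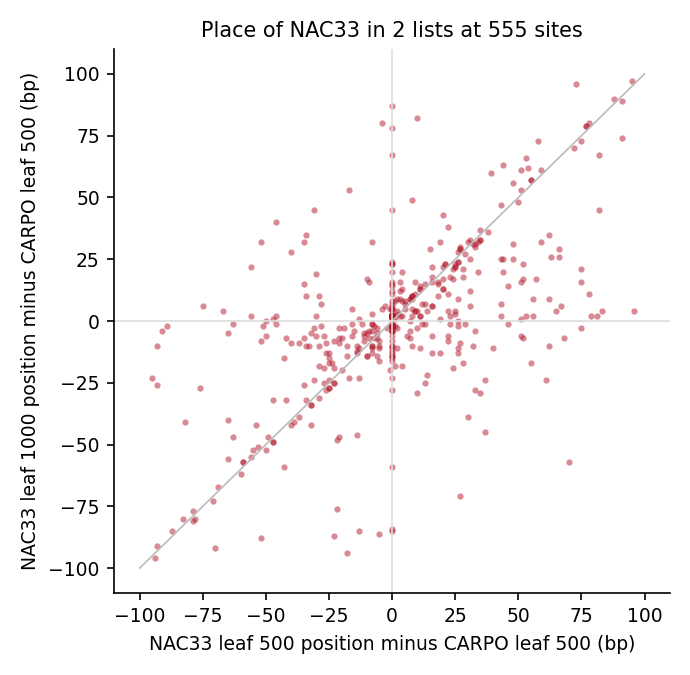
Position of the NAC33 event nearest to CARPO on leaf DNA, labelled 500 (x axis) and labelled 1000 (y axis), both in bp from the CARPO event labelled 500, at the 555 shared sites with both. Each point is a site, and the diagonal marks an unchanged place. Points lie along the diagonal and at the centre, with others scattered between.

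The small distances between lists had a side. At 507 sites NAC03 stood exactly 1 bp from CARPO, at the higher coordinate in 265 and at the lower in 242. Where CARPO labelled 1000 also lay within 3 bp but not at 0 bp, it was on the same side as NAC03 at 329 of 330 sites (99.7%, 95% interval 98.3% to 100%). CARPO on berry DNA was on that side at 219 of 219 sites (98.3% to 100%). NAC33 on berry DNA was on that side at 46 of 46 (92.3% to 100%) and NAC33 labelled 1000 at 157 of 171 (91.8%, 86.6% to 95.5%). The commonest distance on either side was 2 bp for both lists labelled 1000 and 1 bp for both berry lists. NAC33 on leaf DNA labelled 500 stood at the CARPO base itself at 236 of the 260 shared sites where it lay within 3 bp. Sites at 0 bp have no side and were not compared. Only 15 sites of the 507 could be compared, and NAC33 was on the side of NAC03 at 5 (33.3%, 11.8% to 61.6%). Those NAC33 events that stood apart had no preferred side. At the 299 sites with NAC03 1 bp from CARPO and NAC33 more than 3 bp away, NAC33 lay on the side of NAC03 at 147 and on the other at 152. The commonest single distance in this frame, 8 bp on the other side, was seen at 9 sites.

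The shared site with the best mean percentile over the 3 lists of the rule was on chromosome 13, with its CARPO event at 12023114. It ranked 5 in CARPO (strength 5151.2), with NAC33 6 bp and NAC03 17 bp below it in coordinate at ranks 1 and 2. NAC33 was first in both of its other lists, at 12023107 labelled 1000 and at 12023109 on berry DNA. CARPO had no event within 100 bp on leaf DNA labelled 1000 or on berry DNA. It was thus a site where NAC33 was found in 3 of 3 lists and CARPO in 1 of 3.

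The next was on chromosome 1 at 12468910, with strengths of 2547 in CARPO, 1983.6 in NAC33 and 4757 in NAC03 (ranks 14, 3 and 1). CARPO was found there again at rank 41 labelled 1000 and at rank 14 on berry DNA, and NAC33 labelled 1000 at rank 13. The NAC33 berry list had no event there. On chromosome 3, the sites at 1949733 and 1949678 lay 55 bp apart and shared 1 NAC33 event at rank 2. All factors coincided at the first, where NAC33 had the same position and NAC03 was 1 bp away. Its CARPO rank was 20 and its NAC03 rank 11, and with rank 6 and a strength of 2602.7 it was the strongest shared site of the CARPO berry list. At the other, CARPO ranked 8 and NAC03, 2 bp away, ranked 17. NAC33 labelled 1000 had its event at 1949735, rank 2, beside the first. Last of the 5 was the site on chromosome 10 at 4605374, where NAC03 and CARPO each ranked 10 at the same base and NAC33 ranked 24 at 13 bp.

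Among the 92 sites in all 7 lists, the best mean percentile over the lists was on chromosome 18 at 1904409. On leaf DNA labelled 500 its strength was 1366 in CARPO, 232 in NAC33 and 480 in NAC03 (ranks 32, 38 and 26). Labelled 1000 it was 2201 in CARPO and 162 in NAC33 (ranks 12 and 60). On berry DNA it was 1431 in CARPO and 308 in NAC33 (ranks 16 and 27.5). No list placed it below rank 60. The 3 NAC33 events there lay between 1904399 and 1904402 and the 3 CARPO events between 1904406 and 1904410, so the ranges of the factors did not overlap.

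On chromosome 9 at 2611085, CARPO stood at 2611083 to 2611085 in its 3 lists with ranks of 7 to 35, the strongest shared site of the CARPO list labelled 1000. NAC33 stood at 2611072 to 2611077 with ranks of 29 to 72.5. On chromosome 10 at 16274999, NAC33 ranked 26, 113 and 18 on leaf labelled 500, leaf labelled 1000 and berry DNA. CARPO ranked 100, 338.5 and 39 in the same order. The other sites in this set, on chromosome 18 at 9833623 and 9833684, shared their NAC33 and NAC03 events on leaf DNA labelled 500. On berry DNA they were resolved for both factors, with CARPO at 9833614 and 9833675 and NAC33 at 9833618 and 9833685. NAC33 labelled 1000 also had separate events there, at 9833628 and 9833686. CARPO labelled 1000 had a single event, at 9833638 (rank 27), which counted for both sites. With mutual partners only, the place at 9833684 was not a shared site.

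Among the 73 sites found in the 3 lists of the rule only, the best was on chromosome 11 at 1256640. Its rank was 1074 in CARPO, 558 in NAC33 and 401 in NAC03, with NAC33 68 bp away. The next were on chromosome 12 at 4007868 and on chromosome 10 at 6970852, with CARPO ranks of 2823 and 2430.5.

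The sites whose percentile differed most between NAC33 and CARPO were found in 3 lists where NAC33 had the lower percentile and in 5 where CARPO had it. On chromosome 11 at 816376, chromosome 18 at 2024365 and chromosome 4 at 21711124, NAC33 had strengths of 48, 39 and 38 and CARPO of 17, 16 and 15.9. None of the 4 other lists had an event at these 3 places. On chromosome 19 at 8903786 and 6049933 and on chromosome 7 at 3145901, NAC33 had strengths of 17.8, 18 and 18 and CARPO of 104.7, 89 and 83. CARPO recurred at all 3, labelled 1000 and on berry DNA, and NAC33 at none.

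The limit of 100 bp fell in a sparse part of the distances. There were 21 CARPO events whose farther partner lay 91 to 100 bp away, and 20 at 101 to 110 bp. Median CARPO strength was 64 just inside and 35.45 just outside. NAC33 labelled 1000 had an event at 12 of the 21 and at 7 of the 20.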

How the data were processed

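Event lists of 7 conditions were used as deposited, in a 10-column layout without a header and with decimal commas. Per the submitters' processing notes, fastp 0.21.0 and Bowtie2 2.0 were used, with no role given. The event caller GEM is known from file names alone. The genome build and the control given to the caller are not given in the sources used here. Per the labels, replicates 1 and 2 were pooled for the CARPO and NAC33 leaf lists labelled 500. The deposited score in column 5 is a rescaling of column 7, to which a straight line fitted with a residual of at most 0.661. Columns 7 to 9 have no header and were read from their values as the authors' event strength (a signal, used within a list only) and the −log10 of a p-value and of a q-value, with a cap at 999.

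The event position was the start plus the offset, counted from 1. For each event the nearest event of another list on the same sequence was taken, and it counted as a partner within 100 bp. Events within 3 bp were called coincident. Percentiles were computed over the whole list with mean ranks for ties, and the 5 strength classes over the events off chr00. Intervals are exact Clopper-Pearson at the 95% level. The matching was tested on simulated data. Python 3.11.15, pandas 2.3.3, NumPy 2.4.6, SciPy 1.17.1 and Matplotlib 3.10.9 were used.

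The sites and all measures were chosen with earlier results of these data known. Sites named in the text follow a rule: the 5 best mean percentiles over all 7 lists among sites in all 7 and over the 3 lists of the rule, the 3 best among sites in those 3 lists only, the strongest site of each list, and the 3 largest percentile differences between NAC33 and CARPO in each direction. Alternatives were other partner distances, interval overlap, stricter events, chr00 kept, mutual partners, another anchor factor, ranking by p-value, a closer distance in the rule alone and merging of neighbouring sites. Base sequence and genes were not analysed here.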

Additional observations from a re-analysis of the deposited data

How the results depend on the processing

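The share of the shared sites with an event in each of the 4 other lists was above that of the other events of the anchor list under all 13 alternatives. This held in 56 of 56 comparisons with the main setting included. Part of that direction was set by the rule, which requires partner events of the factors that are not the anchor. The settings also reuse the same events and do not match strength. Within classes of CARPO strength, the share for CARPO labelled 1000 was higher at shared sites in classes 1, 2 and 4. It was lower in class 3 (37.0% against 39.7% of other CARPO events) and class 5 (2.94% against 14.5%). The number of sites, 784, was 440 at a partner distance of 25 bp, 211 at 3 bp, 205 with a −log10 q-value floor of 4 and 395 with events above the median strength. These settings admit fewer events or closer ones by construction. In the order CARPO labelled 1000, CARPO berry, NAC33 labelled 1000 and NAC33 berry, the shares were 86.8%, 80%, 92.7% and 32.2% at the q-value limit, and 25.9% of sites were in all 7 lists. Above the median strength they were 85.6%, 77.0%, 86.3% and 25.1%, with 19.2% in all 7. At 3 bp, applied both to the rule and to recurrence, the shares were 61.6% for CARPO labelled 1000, 44.1% for CARPO berry and 19.9% for NAC33 berry, with 5.21% in all 7. At 25 bp they were 70.2% for CARPO labelled 1000 and 52.5% for CARPO berry, with 8.64% in all 7. In 2 alternatives chosen after seeing the data, the closer distance was applied to the rule alone and recurrence was kept at 100 bp. The 440 sites then had 75.2%, 59.8%, 75.2% and 19.8% in the order above, and the 211 sites had 72.5%, 56.4%, 81.5% and 21.3%. The lower CARPO shares at 25 and 3 bp thus came mostly from the closer distance for recurrence. Ranked by p-value, the median NAC03 percentile was 27.9, and the cause was not tested. With NAC33 or NAC03 events as the anchor there were 749 and 761 sites, and with chr00 kept 812. Of 133 checks on 19 named sites, the number of lists was the same in 101 and another in 32. The named sites depended on the partner distance. At 3 bp, 17 of the 19 were no longer shared sites, as were 6 at 25 bp and 4 at 50 bp. With mutual partners only, 2 were lost. With chr00 kept or with interval overlap, 0 were lost, so the pooled count hides the loss at closer distances. No paired analysis was possible because each condition had a single list. The CARPO and NAC33 leaf lists labelled 500 merge 2 libraries and the other 5 lists belong to 1 library each, so no replicate could be left out in turn. The planned look at sequence and nearest genes was not run. Unknown depth limits the recurrence shares, since an event missing from a list may lie below its threshold.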
